A study of Arabidopsis thaliana with 6 samples.

Results

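Jasmonate is the hormone with which Arabidopsis leaves answer wounding and chewing insects, and 10 probe sets on the Affymetrix ATH1 array that read genes of its synthesis, signalling, turnover and output are described here, of 15177 probe sets tested in all. The rule that defines the set goes by gene function and uses no measured value, but the set was drawn up with earlier results of these data known. The synthesis genes are LOX2 (AT3G45140, probe set 252618_at), LOX3 (AT1G17420, 261037_at) and AOS (AT5G42650, 249208_at). The signalling genes are MYC2 (AT1G32640, 261713_at), JAZ1 (AT1G19180, 256017_at), JAZ5 (AT1G17380, 261033_at) and JAZ10 (AT5G13220, 250292_at). CYP94B3 (AT3G48520, 252368_at) acts in turnover, and CORI3 (AT4G23600, 254232_at) is an output gene. The probe set 245928_s_at is shared by the output genes VSP1 (AT5G24780) and VSP2 (AT5G24770), which it cannot tell apart. The probe annotation used here names none of the 10, so each keeps the gene given in the definition of the set. The loci are those of the same symbols in the RefSeq gene table, and no coordinates are given because no genome build is stated for the arrays.

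The plants were 3-week-old Col-0 Arabidopsis thaliana, wild type in both groups. In the saliva group, leaves were infiltrated with artificial diet of sucrose and amino acids on which green peach aphids (Myzus persicae, a phloem-feeding insect) had fed for 24 h, and in the control group with the same diet kept in cups with 0 aphids. Per the labels' protocols the infiltrated saliva diet came from 20 aphids, and a sample was a pool of 18 leaves from 6 plants (3 leaves a plant), harvested after 24 h. Plants of both treatments shared pots and the experiment was done 3 times, so 3 saliva and 3 control arrays were compared as 3 pairs. Both groups were infiltrated with a needleless syringe, so the control leaves were handled leaves and not untouched ones. The saliva was delivered in diet, without an aphid on the leaf.

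The array medians lay between 139.7 and 147.3 intensity units in the saliva group and between 140.4 and 144.9 in the control group, and the lowest values between 3.23 and 3.28. The leaf label was checked with mesophyll markers. Of 8 listed genes 5 had a named probe set, and all 5 lay far above the lowest intensities, with rubisco activase (RCA) between 26603 and 27800 in saliva leaves and between 26649 and 28215 in control leaves. Genes of the phloem, root and flower lists had no named probe set and were not analysed here.

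Jasmonate is made from a chloroplast fatty acid. Lipoxygenases such as LOX2 and LOX3 oxygenate it, allene oxide synthase (AOS) carries out the first committed step, and peroxisomal enzymes shorten the product. The isoleucine conjugate binds the receptor COI1 together with a JAZ repressor, the JAZ protein is destroyed, and the transcription factor MYC2 is released. MYC2 switches on JAZ genes and CYP94B3, which inactivates the hormone, so these transcripts are known as fast and self-limiting readouts, while the vegetative storage proteins VSP1 and VSP2 and the cystine lyase CORI3 are abundant outputs of the pathway in leaves.

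None of the 10 probe sets differed between saliva and control leaves beyond the spread between pairs. Their mean log2 differences, saliva minus control, all lay above 0, as did those of 49.8% of all probe sets. They ran from 0.004 for JAZ1 to 0.69 for JAZ10, with a median of 0.27 beside -0.001 over all probe sets tested. Each was higher in 2 of the 3 pairs and lower in the other. JAZ1 stood at -0.011 after median centring of the arrays, and with array weights, which lean on pair 2, the differences of LOX3, MYC2, JAZ1, JAZ5, JAZ10 and CYP94B3 were below 0 and the median of the 10 was -0.028. In the limma fit with pairs as a block, 0 of the 10 had an adjusted p under 0.05, where the calls over all probe sets came to 0.0% on the higher side and 0.0% on the lower side. Without adjustment, 0 of the 10 had a p under 0.05, where 11.0% of all probe sets passed. The saliva and control values overlapped for each of the 10, while 7.66% of all probe sets had every saliva array above every control array and 8.58% every saliva array below. RNA came from whole leaves, so a change in the number of cells that express a gene and a change in RNA per cell cannot be told apart.

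**Figure D1:**
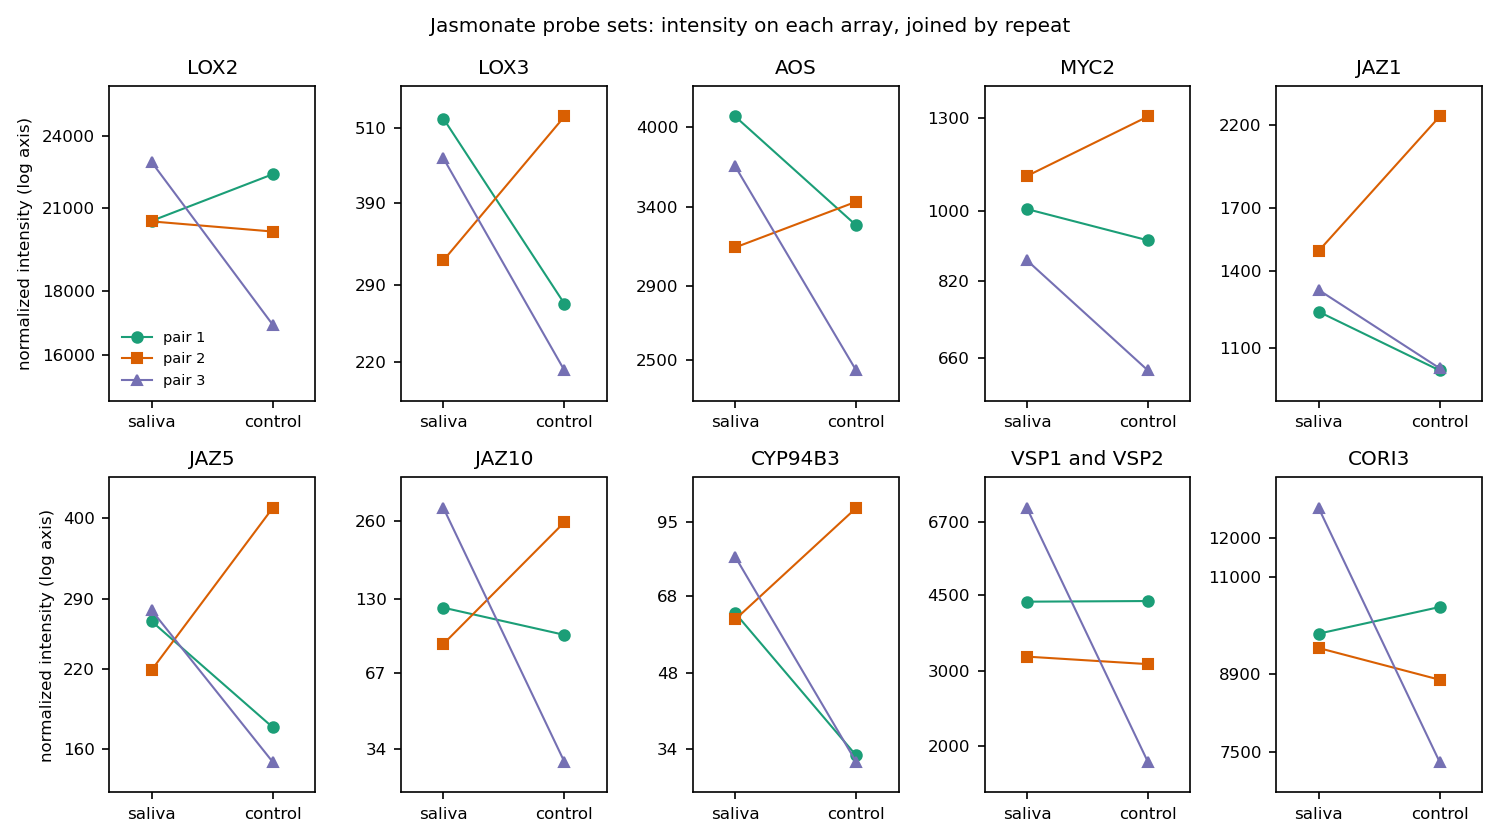
Normalized intensity (log axis, its own range in each panel) of the 10 probe sets on the 3 saliva and 3 control arrays, with a line joining the arrays of a pair. LOX3, AOS, MYC2, JAZ1, JAZ5, JAZ10 and CYP94B3 slope one way in pairs 1 and 3 and the other way in pair 2, and the storage protein, CORI3 and LOX2 lines are steep in pair 3.

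Among the synthesis genes, LOX2, the chloroplast lipoxygenase that supplies much of the leaf's wound jasmonate, had intensities of 20503, 20482 and 22854 in saliva leaves of pairs 1, 2 and 3, against 22351, 20102 and 16918 in control leaves. The saliva arrays were close to each other, and the control array of pair 3 was the lowest of the 6. The mean log2 difference was 0.11 ± 0.29 (SD, n = 3 pairs), a fold of 1.08 with a 95% interval from 0.841 to 1.39 (limma adjusted p = 0.812).

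LOX3, another lipoxygenase of the same type, had 528.3, 317.1 and 458.0 in saliva leaves, against 271.2, 532.4 and 213.3 in control leaves. Saliva was higher in pairs 1 and 3, and in pair 2 the control array was the highest of the 6. The mean difference was 0.44 ± 1.03, a fold of 1.36 with an interval from 0.631 to 2.91 (limma adjusted p = 0.739).

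AOS had 4083, 3137 and 3694 in saliva leaves, against 3279, 3439 and 2448 in control leaves. Again pairs 1 and 3 were higher with saliva and pair 2 was lower. The mean difference was 0.26 ± 0.37, a fold of 1.2 with an interval from 0.887 to 1.61 (limma adjusted p = 0.611).

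Among the signalling genes, MYC2, the transcription factor at the head of the leaf response, had 1004, 1103 and 869.1 in saliva leaves, against 919.4, 1304 and 636.8 in control leaves. Both the highest and the lowest of the 6 values were control arrays, those of pairs 2 and 3. The mean difference was 0.11 ± 0.35, and the interval of the fold ran from 0.811 to 1.44 (limma adjusted p = 0.847).

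JAZ1, a repressor that MYC2 itself induces, had 1232, 1489 and 1318 in saliva leaves, against 1026, 2262 and 1033 in control leaves. The 3 saliva arrays lay between the control array of pair 2 and the other controls. The mean difference was 0.004 ± 0.53 (limma adjusted p = 1.0), with an interval of the fold from 0.666 to 1.51.

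JAZ5, another early repressor gene, had 265.4, 218.9 and 277.3 in saliva leaves, against 174.2, 416.7 and 151.8 in control leaves. As with JAZ1, each saliva value stood between the control of pair 2 and the remaining controls. The mean difference was 0.18 ± 0.97, with an interval of the fold from 0.551 to 2.34 (limma adjusted p = 0.922).

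JAZ10, whose splice forms are known to restrain the response, had 120.1, 86.9 and 293.1 in saliva leaves, against 94.2, 258.1 and 30.2 in control leaves. Its pair differences of 0.35, -1.57 and 3.28 ranged more widely than those of any other of the 10. The mean of 0.69 ± 2.44 therefore had an interval of the fold from 0.269 to 9.62 (limma adjusted p = 0.849), within which large changes in both directions lie.

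The turnover gene CYP94B3, a cytochrome P450 that hydroxylates the active jasmonate conjugate, had 62.9, 61.1 and 81.1 in saliva leaves, against 33.1, 101.0 and 32.1 in control leaves. All 3 saliva values lay between the low controls of pairs 1 and 3 and the high control of pair 2. The mean difference was 0.51 ± 1.09, with an interval of the fold from 0.635 to 3.20 (limma adjusted p = 0.711).

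Among the output genes, the probe set of VSP1 and VSP2, storage proteins with activity against insects, had 4351, 3236 and 7212 in saliva leaves, against 4367, 3107 and 1834 in control leaves. In pairs 1 and 2 the arrays of a pair were nearly level, with log2 differences of -0.005 and 0.058, and pair 3 had 1.98. The mean of 0.68 ± 1.13 rests on pair 3, and without replicate 3 it was 0.027. The interval of the fold ran from 0.694 to 3.68 (limma adjusted p = 0.633).

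CORI3, a gene first known for its induction by the jasmonate mimic coronatine, had 9718, 9417 and 12806 in saliva leaves, against 10304, 8784 and 7333 in control leaves. Here too pair 3 stood apart, with a difference of 0.80 against -0.084 in pair 1 and 0.10 in pair 2. The mean was 0.27 ± 0.47, with an interval of the fold from 0.836 to 1.75 (limma adjusted p = 0.663), and it was 0.0080 without replicate 3.

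**Figure D2:**
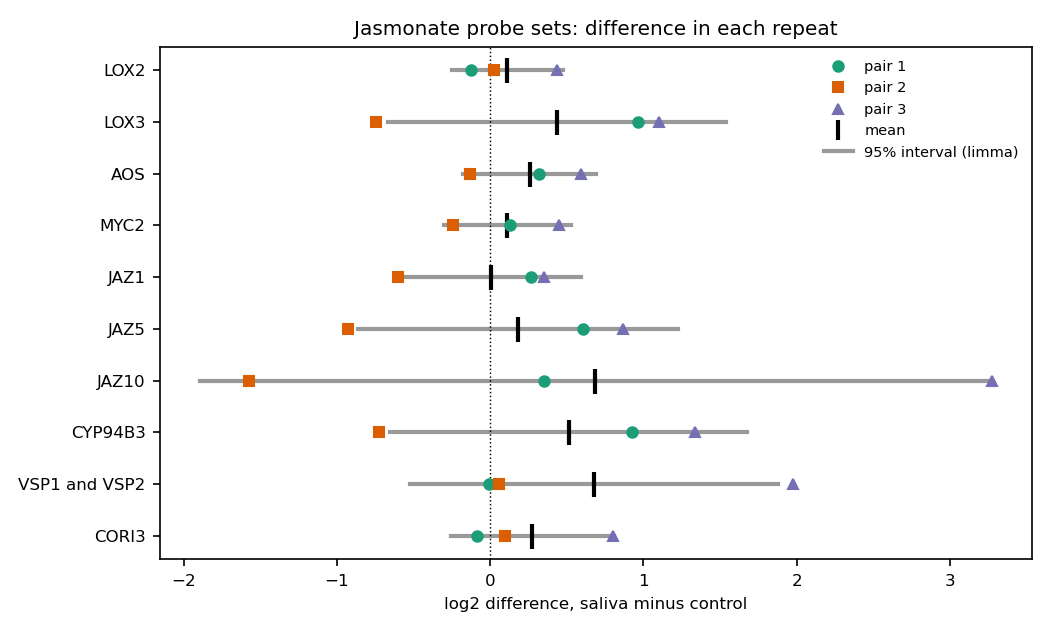
Log2 difference, saliva minus control, of each probe set in pairs 1, 2 and 3 (coloured symbols), with the mean (black bar) and the 95% interval of the limma fit (grey line). Each grey line crosses 0, and pair 3 lies to the right of 0 for all 10 probe sets.

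The 10 probe sets fell into 2 patterns over the pairs, which were noticed in these values and are given as a description. One holds LOX3, AOS, MYC2, JAZ1, JAZ5, JAZ10 and CYP94B3. These 7 were higher with saliva in pairs 1 and 3 and lower in pair 2, a pattern that 6.09% of all probe sets had. The other holds LOX2, the storage proteins and CORI3, whose differences lay between -0.12 and -0.005 in pair 1, between 0.027 and 0.10 in pair 2, and between 0.43 and 1.98 in pair 3. Of all probe sets, 17.6% were lower in pair 1 and higher in the other pairs.

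The median over the 10 was 0.29 in pair 1, -0.42 in pair 2 and 0.84 in pair 3, while the medians over all probe sets were -0.016, 0.009 and 0.005. All 10 were higher in pair 3, where 50.8% of all probe sets were. Leaving out pair 2 gave a median of 0.60, and leaving out pair 3 gave -0.020. The unadjusted p was under 0.05 for 0 of the 10 without replicate 1 and for 0 without replicate 3, where 1848 and 1374 of the 15177 probe sets passed. Without replicate 2 it was under 0.05 for 4 of the 10, where 6.2% of all probe sets passed. Each of the 4 had a limma adjusted p = 0.789. Pair 2 was singled out because it ran the other way in these same values, so smaller p-values without it are built in. Without replicate 2 the difference of LOX3 was 1.03, that of CYP94B3 1.13, that of JAZ5 0.74 and that of AOS 0.45. Without replicate 3 the differences were 0.11 for LOX3, 0.10 for CYP94B3, -0.16 for JAZ5 and 0.092 for AOS, and without replicate 1 they were 0.18, 0.31, -0.030 and 0.23 in the same order. The raw file names in the labels set replicate 1 apart from replicates 2 and 3. Within replicates 2 and 3 the median was 0.23, and these pairs had opposite signs for the 7 probe sets from LOX3 to CYP94B3 above.

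For the 10 probe sets, the control arrays varied more than the saliva arrays. The spread was wider among control arrays for all 10 probe sets, by a narrow margin for CORI3, where 46.5% of all probe sets had the wider spread in controls. The median SD of log2 intensity was 0.208 over the saliva arrays and 0.643 over the control arrays, against 0.130 and 0.115 over all probe sets. For 11 other jasmonate genes, described below, it was 0.291 over the saliva arrays and 0.249 over the control arrays. Of these 11, 7 had the wider spread in controls. So did the wounding and touch genes CML38 (saliva 0.324, control 0.696) and STZ (0.439 and 0.756), but not CML37 (0.495 and 0.117). The control array of pair 3 was the lowest of the 6 arrays for 9 of the 10, all but JAZ1, and for 21.1% of all probe sets. The control array of pair 2 was the highest of the 6 for 5 of the 10, LOX3, MYC2, JAZ1, JAZ5 and CYP94B3, and for 11.5% of all probe sets. Between its highest and lowest array JAZ10 ranged 3.37-fold in saliva leaves and 8.54-fold in control leaves, CYP94B3 1.33-fold and 3.14-fold, JAZ5 1.27-fold and 2.75-fold, and JAZ1 1.21-fold and 2.20-fold. The storage proteins ranged 2.23-fold in saliva leaves and 2.38-fold in control leaves.

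**Figure D3:**
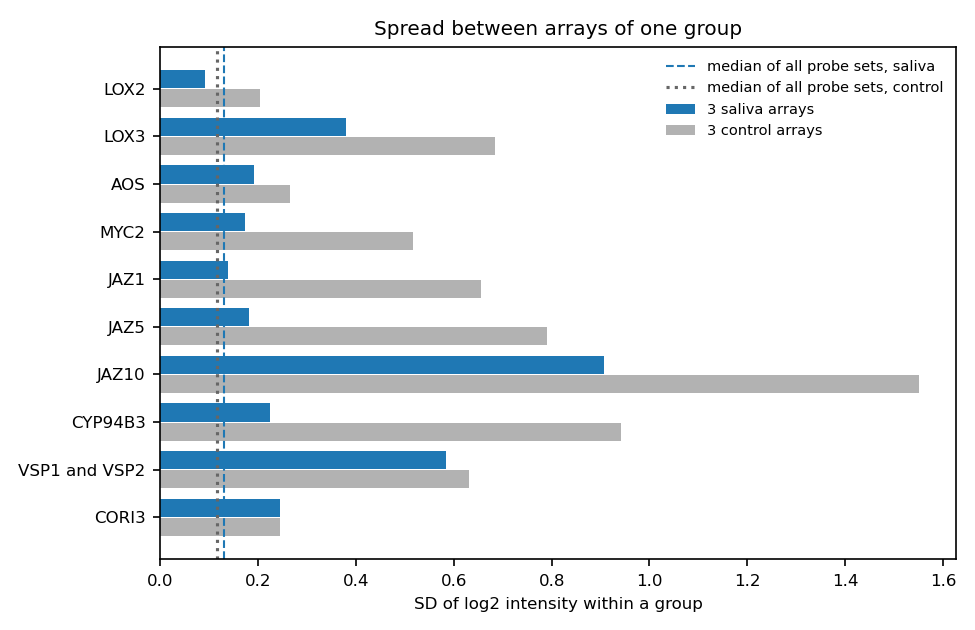
Standard deviation of log2 intensity over the 3 saliva arrays (blue) and the 3 control arrays (grey) for each probe set, with the medians over all probe sets as a dashed line (saliva, 0.130) and a dotted line (control, 0.115). The bars differ most in proportion for JAZ1 (saliva 0.138, control 0.655), JAZ5 (saliva 0.182, control 0.790) and CYP94B3 (saliva 0.225, control 0.942).

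Correlations across the 6 arrays are given as a description, since the probe sets share arrays and pairs. The patterns were set by the signs of the pair differences on these same arrays. A higher r within a pattern than between patterns is therefore partly built in. Pearson's r was between 0.929 and 0.985 among LOX2, the storage proteins and CORI3. Among the 7 others it ran from 0.297 to 0.954, with a median of 0.79. Between the patterns it ran from -0.012 to 0.801, with a median of 0.43, so the ranges overlapped. The mean of the 10, each centred on its own mean, was 0.14, -0.053 and 0.40 in saliva arrays 1, 2 and 3, against -0.19, 0.42 and -0.72 in control arrays 1, 2 and 3. Of 5261 other named probe sets with a mean log2 value of at least 6, AT1G77420 followed this profile most closely (r = 0.97 over 6 arrays). Its log2 values were 8.36, 8.25 and 8.41 in saliva leaves, against 8.20, 8.37 and 7.88 in control leaves. AT3G57930, AT1G25400, AT2G40270, AT3G11960 and AT2G23070 came next, with r between 0.95 and 0.96. These are the top of 5261 correlations over only 6 arrays, so they cannot show shared regulation, which was not tested.

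Of 71 genes listed for the pathway, 11 others were read by a probe set that the annotation gives to 1 gene. None passed the limma test at an adjusted p under 0.05, and 4 of the 11 had an unadjusted p under 0.05, all higher, where 5.59% of all probe sets were. That count depends on the fit. Without the block and with an estimated block correlation it was 2, AIM1 and THI2.1. Of the 4 genes, AIM1 and THI2.1 passed without replicate 1, and JRG21 and THI2.1 without replicate 2 or 3. Over all 11 genes the median difference was 0.20, with 0.12, 0.16 and 0.39 in pairs 1, 2 and 3. All 11 lay above 0 in pair 3, where 50.8% of all probe sets did, but MYC4 (0.002) and JOX4 (0.004) were nearly level there. Of the 11, 5 were higher in all 3 pairs, JRG21, THI2.1, AIM1, PDF1.2 and MYC3, beside 16.7% of all probe sets. For 3 of the 11, JRG21, THI2.1 and AIM1, every saliva array lay above every control array, beside the 7.66% of all probe sets given above.

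JRG21 (AT3G55970, also known as JOX3), an oxidase that inactivates jasmonic acid, had 95.8, 74.6 and 358.8 in saliva leaves, against 54.6, 50.7 and 70.4 in control leaves. The saliva array of pair 3 was far above the others, and all 3 pairs had a positive difference. The mean was 1.24 ± 0.97, a fold of 2.36 with an interval from 1.15 to 4.86 (limma adjusted p = 0.415), and 0.69 without replicate 3. The related oxidase AT5G05600 (JOX2) had 1189, 1274 and 1763 in saliva leaves, against 1282, 1139 and 743.9 in control leaves, a difference of 0.43 ± 0.72 that was 0.026 without replicate 3. AT2G38240 (JOX4), another such oxidase, had 0.17 ± 0.54, with values of 47.1, 49.6 and 68.4 in saliva leaves and of 27.7, 59.6 and 68.2 in control leaves. The 3 oxidases did not share a pattern over the pairs.

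AIM1, a multifunctional protein of peroxisomal fatty acid shortening, had 2018, 1879 and 2039 in saliva leaves, against 1813, 1373 and 1557 in control leaves. Its mean difference was 0.33 ± 0.16 (limma adjusted p = 0.398), a fold of 1.26. OPCL1, which activates the jasmonate precursor in the same organelle, had differences of -0.29, -0.30 and 0.56. JMT, which makes methyl jasmonate, had -0.35, -0.50 and 0.22, with saliva values from 25.1 to 30.2 and control values from 25.9 to 36.8. In pairs 1 and 2, AIM1 lay above 0 and both other enzymes below it.

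MYC3 and MYC4 are close relatives of MYC2 that act beside it. MYC3 had 211.5, 214.2 and 143.8 in saliva leaves, against 194.3, 176.6 and 126.7 in control leaves, a difference of 0.19 ± 0.079 (limma adjusted p = 0.471). MYC4 had -0.047 ± 0.11, with saliva values from 57.7 to 59.9 and control values from 56.3 to 67.7. Unlike MYC2, neither had a control array of pair 2 above the other controls.

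THI2.1, a thionin of the MYC-dependent output, had 9.85, 10.9 and 15.0 in saliva leaves, against 7.55, 7.15 and 7.17 in control leaves. These are dim values, near the lowest intensities of the arrays, and the difference of 0.68 ± 0.35 had a limma adjusted p = 0.358. The defensin PDF1.2, which needs ethylene as well as jasmonate, had 392.3, 360.8 and 445.7 in saliva leaves, against 334.5, 313.5 and 396.3 in control leaves. Its 3 differences lay between 0.17 and 0.23 (limma adjusted p = 0.448). PDF1.2b, a near-identical defensin whose probe set can also bind its relatives, had -0.091, 0.086 and 1.08 in the pairs, so its mean of 0.36 ± 0.63 rests on pair 3.

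**Figure D4:**
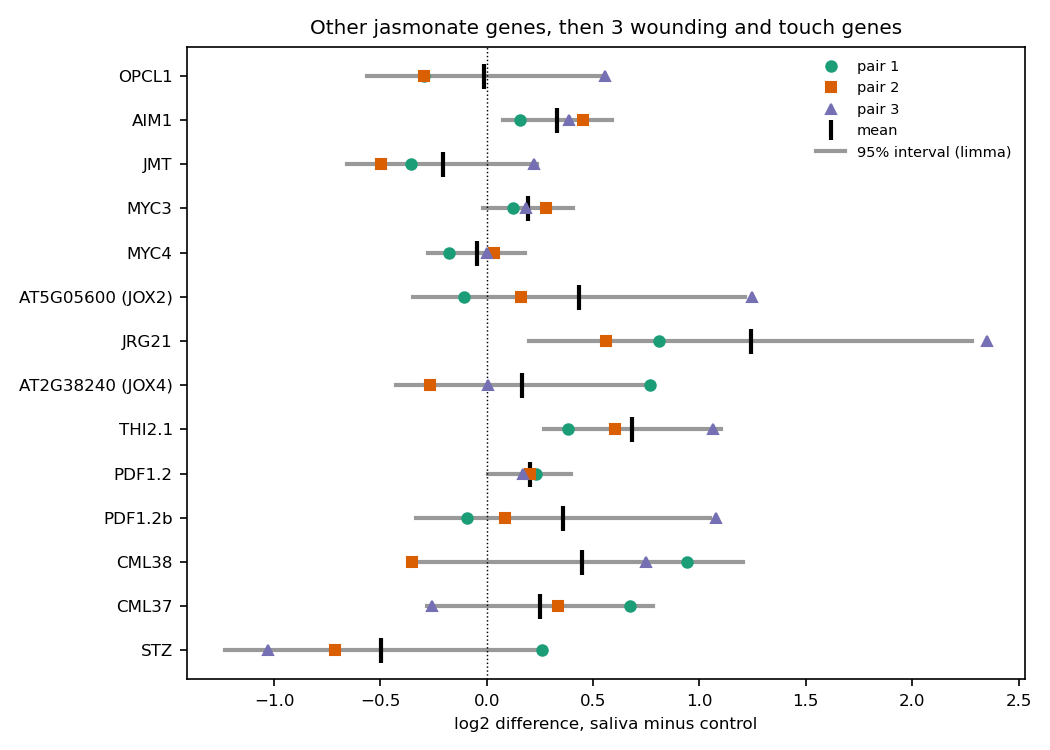
Log2 difference, saliva minus control, in pairs 1, 2 and 3 (coloured symbols), with the mean (black bar) and the 95% interval of the limma fit (grey line), for 11 other jasmonate genes and 3 genes of the wounding and touch list. The intervals of AIM1, JRG21, THI2.1 and PDF1.2 lie above 0 before adjustment over all probe sets; without the block those of JRG21 (-0.21 to 2.69) and PDF1.2 (-0.098 to 0.50) cross 0.

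Wounding and touch genes were read beside the pathway because both groups were infiltrated. Of 9 listed, 3 had a named probe set and 0 passed the limma test. The calmodulin-like gene CML38 had 218.8, 168.4 and 140.0 in saliva leaves, against 114.0, 214.8 and 83.4 in control leaves. Its lowest array was the control of pair 3, as for 9 of the 10 jasmonate probe sets. Its pair differences of 0.94, -0.35 and 0.75 had the same signs as those of the 7 probe sets from LOX3 to CYP94B3. The zinc finger gene STZ had 570.4, 819.0 and 447.7 in saliva leaves, against 476.8, 1344 and 913.5 in control leaves. Its highest array was the control of pair 2, as for 5 of the 10 jasmonate probe sets but not for CML38. The pair differences of STZ were 0.26, -0.71 and -1.03, and those of CML37 0.67, 0.33 and -0.26, both with other signs than CML38. CML37 was dim, with 13.9, 12.7 and 7.37 in saliva leaves, against 8.72, 10.1 and 8.81 in control leaves. The summed intensity of the 3 genes was between 595.0 and 1000.2 in saliva leaves and between 599.4 and 1568.8 in control leaves. The summed intensity of the 5 mesophyll markers was between 90253 and 93975 in saliva leaves and between 94795 and 101583 in control leaves. Every saliva sum thus lay below every control sum, and the highest was on the control array of pair 3. For the markers PSAN, AT1G11860 and PSBW every saliva array lay below every control array, as for 8.58% of all probe sets. The values of RCA and LHCB4.1 overlapped, and 0 of the 5 passed the limma test. The guard cell gene FMA, 1 of 6 epidermal genes with a named probe set, had 65.5 to 69.4 in saliva leaves and 44.3 to 76.5 in control leaves. The part of handling or of leaf composition in the jasmonate values was not tested.

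In the authors' deposited table the folds of the 10 probe sets, ratios of the linear group means, ran from 0.935 for JAZ1 to 1.59 for the storage proteins. Its paired false discovery rates were between 0.311 for AOS and 0.996 for JAZ1, and 0 of the 10 were under 0.05, where 3.05% of all probe sets in the authors' deposited table were. For JAZ1 the linear mean was lower with saliva, at 1346 against 1440 in control leaves, while the mean log2 difference was 0.004.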

How the data were processed

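Total RNA was hybridised to 1 ATH1 array per sample. The intensity values deposited by the authors are normalized and linear. The submitters' processing notes name GCRMA, GCOS and limma. Their versions, roles and order are not given in the sources used here. Array values of the 2 deposited files were the same, with 0 cells differing. The authors' deposited table also gives a fold, a ratio of linear group means, and adjusted p-values, which the file headers call paired FDR and unpaired FDR. Columns of per-sample values left unused numbered 0.

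Log2 values were taken without a pseudocount. After 59 control probe sets were left out, 15177 entered the fit of limma 3.58.1 under R 4.3.3 (lmFit and eBayes). The pair was a block, with Benjamini-Hochberg adjustment over all of them at a threshold of 0.05. The fit was also run on simulated data with independent noise, no pair effect and added log2 changes of 1 or 2. That run does not cover smaller differences or differences that vary between pairs. The block follows the shared pots in the labels' protocols, and deviations from the group mean correlated by -0.12, 0.15 and 0.10 within pairs 1, 2 and 3. The labels call the repeats independent biological replicates. Precision is limited by the number of arrays, which have no read depth.

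The annotation gave 1 gene for 8330 probe sets, several for 334 and none for 6513, and 8298 of the 8330 matched the RefSeq gene table (assembly TAIR10.1). Named genes were the 10 members, every gene of 6 jasmonate lists with its own named probe set, up to 3 wounding genes, and the 6 probe sets with the highest r to the members' mean profile. Members and lists were chosen with earlier results of these data known.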

Additional observations from a re-analysis of the deposited data

How the results depend on the processing

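The counts of called probe sets stayed at 0 higher and 0 lower, over all probe sets and over the 10 members, without the block (no replicate block: 0 and 0), with an estimated block correlation, a mean log2 floor of 4, control probe sets kept, array weights, median or quantile normalization between arrays, a trend in eBayes, an adjusted p under 0.1 and each pair left out (0 to 0). The threshold of 0.1 was applied only to the fit with the block, where the lowest limma adjusted p was 0.338. The lowest limma adjusted p was 0.0782 without the block and 0.0911 with an estimated block correlation, which was -0.0536. An unadjusted p under 0.05 was reached by 848 probe sets on the higher and 826 on the lower side, with 0 and 0 members, a looser threshold by construction. The median of the member differences, 0.27, turned to -0.028 with array weights, ranged from -0.020 to 0.60 with a pair left out, and was 0.25 to 0.28 in the other fits. Of the 11 other jasmonate genes, the number with an unadjusted p under 0.05, 4 with the block, was 2 without the block, with an estimated block correlation and with the floor, 3 with a trend or median centring, 4 with quantile normalization or control probe sets kept and 5 with array weights. With a pair left out it was 2 to 4, and without replicate 3 the 4 included JMT and OPCL1, both lower. The interval of PDF1.2 also crossed 0 with an estimated block correlation, a trend, the floor, median centring and each replicate left out. That of JRG21 also crossed 0 with an estimated block correlation, quantile normalization and without replicate 1. The interval of AIM1 crossed 0 without replicate 2 and without replicate 3.

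Array weights, which gave pair 2 a weight of 2.22 against 0.62 and 0.72, turned CYP94B3 to -0.018, JAZ1 to -0.26, JAZ10 to -0.25, JAZ5 to -0.30, LOX3 to -0.073, MYC2 to -0.038 and JOX4 to -0.030. Median centring turned JAZ1 to -0.011. With a pair left out, ranges that crossed 0 were -0.17 to 0.31 for JAZ1, -0.61 to 1.81 for JAZ10, -0.16 to 0.74 for JAZ5, -0.049 to 0.23 for LOX2, -0.058 to 0.29 for MYC2, -0.13 to 0.38 for JOX4, -0.088 to 0.018 for MYC4, -0.29 to 0.13 for OPCL1 and -0.0029 to 0.58 for PDF1.2b. The cause was not tested. The floor dropped THI2.1 and CML37, whose dim signals limit their fold changes.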
